A study of Mus musculus with 2 samples.

Results

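The clusters that run from miR-17 to miR-92a and from miR-106b to miR-25, called here the Mir17 and Mir106b clusters after their first genes, were followed in microRNA (miRNA) libraries of the mouse adrenal gland. The members were the gene rows whose identifier carries the symbol Mir17, Mir18, Mir19a, Mir20a, Mir19b-1, Mir92-1, Mir106b, Mir93 or Mir25 in GENCODE M21, which gave 9 of the 2202 miRNA genes counted. The 2 libraries, replicates 2 and 1, came from male B6CASTF1/J mice aged 10 days, the F1 hybrid of a C57BL/6J and a CAST/EiJ parent, with no treatment given in the labels. They form 1 group and name different males under a shared donor record, and whether glands were pooled is not stated. Values are counts on the strand of the gene, and CPM scales them to all reads assigned to genes in a library, 3080062 in replicate 2 and 2843734 in replicate 1. With 1 group there was no second condition, so the members were compared with each other within each cluster and replicate 2 was set against replicate 1.

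Each cluster is transcribed as 1 precursor that is cut into several miRNAs. The Mir17 cluster, carried by the noncoding host transcript Mir17hg, is a target of MYC and E2F factors and is known for promoting cell cycle entry and survival through repression of Cdkn1a and Bcl2l11. The Mir106b cluster lies in Mcm7, which encodes a subunit of the replicative helicase, and shares target families with the Mir17 cluster. Bulk counts cannot tell fewer cells of a type from less RNA per cell.

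The mature sequences show which members can act on the same targets, because the seed at bases 2 to 8 directs target pairing. The RefSeq table (build GRCm38.p6) held mature forms for all 9 members. For each member the arm usually described as the main product is printed 5′ to 3′ with the seed in capitals. The counts are per gene and do not separate the arms.

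The first group has the seed AAAGUGC, shared by members of both clusters:
miR-17-5p: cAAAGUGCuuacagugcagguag
miR-20a-5p: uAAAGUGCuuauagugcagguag
miR-93-5p: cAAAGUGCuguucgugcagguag
miR-106b-5p: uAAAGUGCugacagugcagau

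The next groups hold members of the Mir17 cluster only, with the seeds AAGGUGC and GUGCAAA:
miR-18a-5p: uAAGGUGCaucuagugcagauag
miR-19a-3p: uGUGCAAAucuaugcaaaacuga
miR-19b-3p: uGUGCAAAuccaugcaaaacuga

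The last group has the seed AUUGCAC and again joins the clusters:
miR-92a-3p: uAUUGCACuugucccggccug
miR-25-3p: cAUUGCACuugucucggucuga

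Over aligned bases miR-17-5p and miR-20a-5p differed at 2 of 23 positions, miR-17-5p and miR-93-5p at 4 of 23, miR-19a-3p and miR-19b-3p at 1 of 23, and miR-92a-3p and miR-25-3p at 3 of 21. The sequence of miR-19b-3p lies whole in both Mir19b-1 and Mir19b-2, and that of miR-92a-3p in both Mir92-1 and Mir92-2. Mir19b-1 and Mir19b-2 share a run of 25 bases and Mir92-1 and Mir92-2 a run of 22, so the counts of Mir19b-1 and Mir92-1 are uncertain, since the files hold reads with more than 1 place in the genome in a row of their own. The other 7 members share no run of 18 bases with any other miRNA hairpin of the annotation.

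By the annotation of the mm10 build, the 6 members of the Mir17 cluster lie on the plus strand of chromosome 14 in an exon of the only annotated transcript of Mir17hg. Mir17 (ENSMUSG00000065508.1) runs from 115043671 to 115043754, Mir18 (ENSMUSG00000065403.1) from 115043851 to 115043946, Mir19a (ENSMUSG00000065416.1) from 115044000 to 115044081, Mir20a (ENSMUSG00000065442.1) from 115044157 to 115044263, Mir19b-1 (ENSMUSG00000076256.1) from 115044305 to 115044391 and Mir92-1 (ENSMUSG00000076062.1) from 115044427 to 115044506. The 3 members of the Mir106b cluster lie on the minus strand of chromosome 5 inside Mcm7, with Mir106b (ENSMUSG00000065514.1) from 138165737 to 138165818, Mir93 (ENSMUSG00000065527.1) from 138165523 to 138165610 and Mir25 (ENSMUSG00000065394.1) from 138165321 to 138165404. Mir106b lies in an intron of both Mcm7 transcripts that span it. Mir93 and Mir25 each lie in an intron of 2 and in an exon of 1 of the 3 that span them. No other miRNA gene overlaps a member, and 1 read in all lay on a member's opposite strand, at Mir106b in replicate 1.

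All 9 members were detected at 1 CPM or more in both libraries, but their means ranged from 2.75 CPM for Mir19a to 5621 CPM for Mir17. Mir17, which gives the cluster its name, had 4475 CPM in replicate 2 and 6768 CPM in replicate 1 (5621 ± 1622 CPM, SD, n = 2) and ranked 35 among all genes. Mir93, its counterpart of the same seed in Mcm7, had 4691 CPM in replicate 2 and 5526 CPM in replicate 1 (5109 ± 590.2 CPM, rank 36). These leading members of the 2 clusters overlapped, with Mir93 above Mir17 in replicate 2 and below it in replicate 1.

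A middle group followed. Mir20a, which shares the Mir17 seed, had 1349 CPM in replicate 2 and 2908 CPM in replicate 1 (2128 ± 1103 CPM). Mir92-1 had 2334 CPM in replicate 2 and 1605 CPM in replicate 1 (1969.7 ± 515.3 CPM). Mir106b, the first hairpin of the Mcm7 cluster, had 1459 CPM in replicate 2 and 2401 CPM in replicate 1 (1929.7 ± 666.1 CPM). The values of these 3 genes overlapped, and their means differed by less than their SDs. In both libraries each of them lay below Mir17 and Mir93, by CPM per gene.

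Mir18 and Mir25 were lower. Mir18, the source of miR-18a, had 534.4 CPM in replicate 2 and 645.3 CPM in replicate 1 (589.8 ± 78.4 CPM). Mir25, which shares the seed of miR-92a, had 382.5 CPM in replicate 2 and 394.9 CPM in replicate 1 (388.7 ± 8.80 CPM). The libraries did not overlap between Mir18 and Mir25, nor between either of them and the middle group.

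The counts of the miR-19 members stood far below those of the rest of their own transcript. Mir19a had 5 reads in replicate 2 and 11 in replicate 1, or 1.62 CPM (95% Wilson interval 0.693 to 3.80) and 3.87 CPM (2.16 to 6.93). Mir19b-1 had 10 reads in replicate 2 and 11 in replicate 1, or 3.25 CPM (1.76 to 5.98) and 3.87 CPM (2.16 to 6.93). The limits that a count of 0 (3 reads) allows were 0.974 CPM for replicate 2 and 1.05 CPM for replicate 1, and such intervals and limits cover counting error only. Both genes lay above these limits in both libraries, and their intervals overlapped. Mir20a is the hairpin between them, and Mir19a had 0.0012 times its reads in replicate 2 and 0.00133 times in replicate 1. Mir20a over Mir19b-1 was 415.4 in replicate 2 and 752 in replicate 1. This ratio is uncertain, because miR-19b-3p lies whole in Mir19b-2 too and reads with several places are not counted. The low count of Mir19b-1 thus does not show a low level. No other hairpin holds miR-19a-3p, and Mir19a shares no run of 18 bases with another hairpin.

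**Figure D1:**
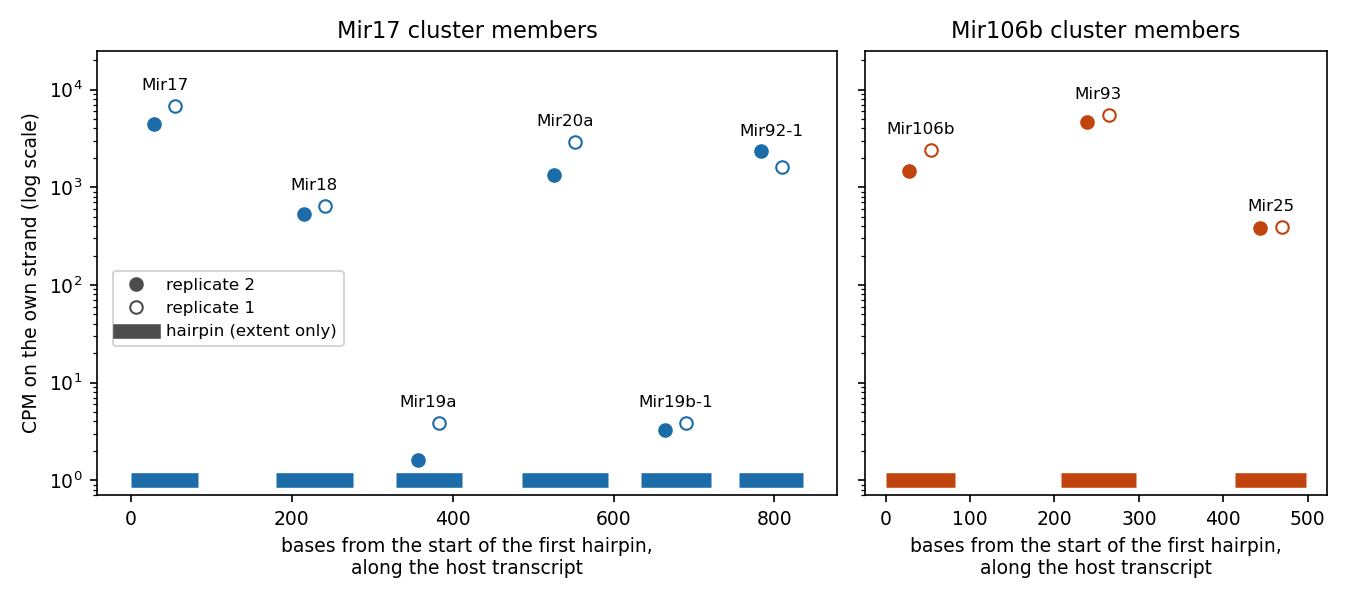
CPM on the own strand, on a log scale, against the distance in bases from the start of the first hairpin of each cluster; filled points are replicate 2, open points replicate 1, and the bars at the bottom mark the extent of each hairpin only. Mir19a and Mir19b-1 lie at 3.87 CPM or below on either side of Mir20a, while every other member lies at 382.5 CPM or above.

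Position along the transcript did not order the levels. In the Mir17 cluster the first hairpin was the highest, Mir18 and Mir19a were lower in turn, and Mir20a and Mir92-1 were again above Mir18. In the Mir106b cluster the second hairpin was the highest. These orders hold per gene and per length. Since hairpins differ in length, from 80 to 107 bases, the order was also taken from CPM per 100 bases of hairpin, where Mir17 (6692), Mir93 (5805), Mir92-1 (2462), Mir106b (2353), Mir20a (1989), Mir18 (614.4), Mir25 (462.7), Mir19b-1 (4.09) and Mir19a (3.35) followed each other. Per length Mir20a, the longest hairpin, came after Mir92-1 and Mir106b, and the other members kept their order.

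As a whole the 6 members of the Mir17 cluster held 0.870% of all counts in replicate 2 (0.859 to 0.880, 95% Wilson interval) and 1.19% in replicate 1 (1.18 to 1.21), or 1.03% ± 0.229 (SD, n = 2). The 3 members of the Mir106b cluster held 0.653% in replicate 2 (0.644 to 0.662) and 0.832% in replicate 1 (0.822 to 0.843), or 0.743% ± 0.127. The sum of the Mir17 cluster was 1.33 times that of the Mir106b cluster in replicate 2 and 1.43 times in replicate 1. This ratio differed between the libraries by -0.11 on the log2 scale (95% interval -0.14 to -0.07, p = 3.5e-09 in Fisher's exact two-sided test), more than counting error. With Mir19b-1 and Mir92-1 left out for their shared sequence, this difference was -0.35 (p = 2.3e-74, Fisher's exact test), and the mean log2 ratio was 0.14, against 0.47 with them. The sum of the Mir17 cluster was then below that of the Mir106b cluster in replicate 2 and above it in replicate 1. Which cluster had more counts in replicate 2 thus rested on the uncertain count of Mir92-1.

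By likeness of log2(CPM + 1) in both libraries, the genes nearest to the sum of the Mir17 cluster were Mir411 (distance 0.20), Mir10b (0.25) and Mir744 (0.57). Those nearest to the sum of the Mir106b cluster were Mir30a (0.33), Mir744 (0.34) and Mir191 (0.35). With only 2 libraries this distance says little beyond a like level.

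The make-up of the Mir17 cluster also differed between the libraries. All of its shares include the count of Mir92-1, which is uncertain for its shared sequence. Mir92-1 made up 26.8% of the cluster's counts in replicate 2 (95% Wilson interval 26.3 to 27.4) and 13.5% in replicate 1 (13.1 to 13.8). Mir20a made up 15.5% in replicate 2 (15.1 to 15.9) and 24.4% in replicate 1 (23.9 to 24.8). Mir17 made up 51.5% in replicate 2 (50.9 to 52.1) and 56.7% in replicate 1 (56.2 to 57.2), and so was the leading member in both. Mir18 made up 6.15% and 5.41% of replicates 2 and 1, Mir19a 0.0187% and 0.0324%, and Mir19b-1 0.0373% and 0.0324%.

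**Figure D2:**
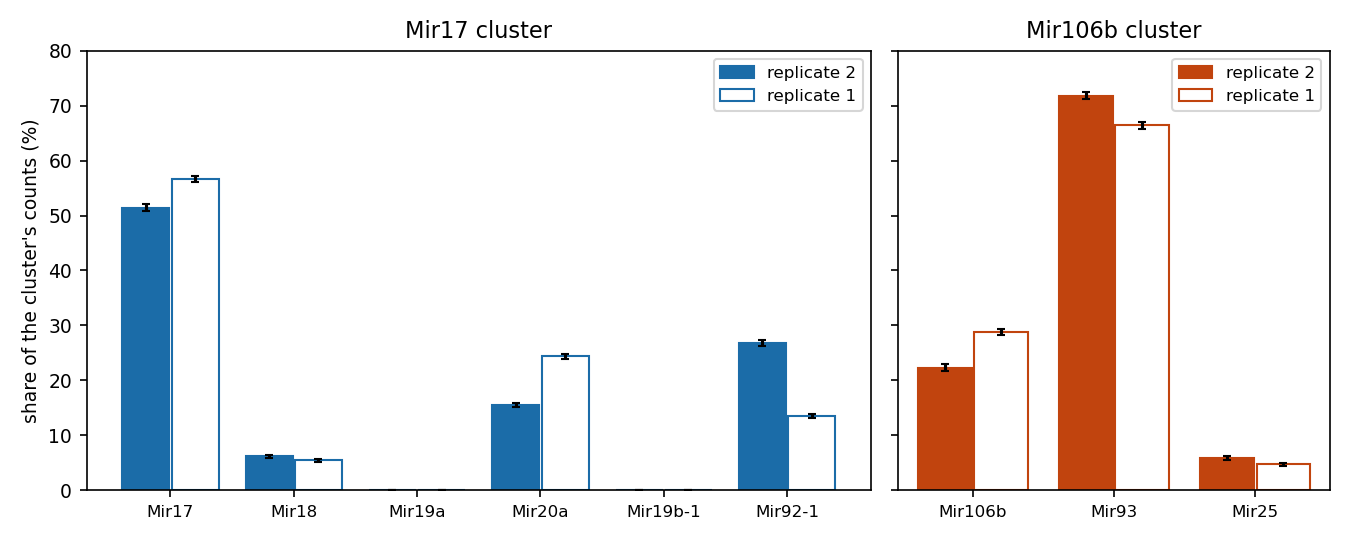
Share of the summed counts of each cluster, in percent, taken by each member in replicate 2 (filled bars) and replicate 1 (open bars); error bars are 95% Wilson intervals and cover counting error only. Mir92-1 takes 26.8% of the Mir17 cluster in replicate 2 and 13.5% in replicate 1, and Mir93 takes the largest share of the Mir106b cluster in both.

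In the Mir106b cluster the order of the shares was the same in both libraries. Mir93 made up 71.8% in replicate 2 (71.2 to 72.4) and 66.4% in replicate 1 (65.8 to 67.0). Mir106b made up 22.3% in replicate 2 (21.8 to 22.9) and 28.8% in replicate 1 (28.3 to 29.4). Mir25 made up 5.85% in replicate 2 (5.54 to 6.19) and 4.75% in replicate 1 (4.48 to 5.02).

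Ratios of 2 members within a library need no scaling to a total. Of 18 such pairs, 15 in the Mir17 cluster and 3 in the Mir106b cluster, the ratio differed between the libraries in 10 (Fisher's exact two-sided test with Benjamini-Hochberg adjustment over the 18 pairs), 7 of the Mir17 cluster and all 3 of the Mir106b cluster. The test sets these libraries against counting error, not against conditions. The pairs reuse the same members and are not independent, and pairs of other genes were not tested. Of all single genes tested, 59% differed between the libraries by more than counting error. The largest difference by that measure among pairs without a miR-19 gene was that of Mir20a over Mir92-1, which was 0.578 in replicate 2 and 1.81 in replicate 1, a difference of -1.65 on the log2 scale (95% interval -1.72 to -1.57). This was the only pair whose order turned, apart from Mir19a and Mir19b-1, which had equal counts in replicate 1.

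Mir17 over Mir92-1, the first and last hairpins of the transcript, was 1.92 in replicate 2 and 4.22 in replicate 1 (difference -1.14, interval -1.20 to -1.07). Mir17 over Mir20a, which share their seed, was 3.32 in replicate 2 and 2.33 in replicate 1 (0.51, 0.45 to 0.57). Mir93 over Mir25 was 12.3 in replicate 2 and 14.0 in replicate 1 (-0.19, -0.31 to -0.07, adjusted p = 0.00488 in Fisher's exact test), the smallest difference that passed. Of the 9 pairs with a miR-19 gene, 8 did not pass, and their intervals were wide at these counts. Mir18 over Mir19b-1, for example, differed by -0.03 with an interval from -1.26 to 1.22, so differences that large either way were within counting error. The pair that passed was Mir19a over Mir92-1 (adjusted p = 0.0347, Fisher's exact test).

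Mir18 took part in 3 of the pairs that passed. Mir18 over Mir20a was 0.396 in replicate 2 and 0.222 in replicate 1 (difference 0.84, interval 0.73 to 0.95). Mir18 over Mir92-1 was 0.229 in replicate 2 and 0.402 in replicate 1 (-0.81, -0.92 to -0.70), and Mir17 over Mir18 was 8.37 in replicate 2 and 10.5 in replicate 1 (-0.33, -0.43 to -0.22). In the Mir106b cluster Mir106b was the member whose ratios differed most. Mir106b over Mir93 was 0.311 in replicate 2 and 0.434 in replicate 1 (-0.48, -0.55 to -0.42), and Mir106b over Mir25 was 3.81 in replicate 2 and 6.08 in replicate 1 (-0.67, -0.80 to -0.54).

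Between the libraries, 8 of 9 members had a lower CPM in replicate 2, and Mir92-1 had a higher one. By an exact two-sided binomial test on every gene with at least 10 reads over both libraries, with Benjamini-Hochberg adjustment over all 444 genes tested, 6 of the 9 members differed by more than counting error, against 59% of all genes tested. Lower in replicate 2 were 5 members, against 30.4% of all genes, and higher was 1, against 28.6% of all genes. The median log2 ratio of the members was -0.27 and that of all genes tested 0.07, while the median size of the log2 ratio was 0.54 for the members and 0.56 for all genes. Among genes with a mean of at least 100 reads the median size was 0.54 for 7 members and 0.46 for 257 genes.

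Mir20a had the lowest ratio of the members that passed, -1.11 on the log2 scale (95% interval -1.16 to -1.05, counting error only). Mir106b followed at -0.72 (-0.77 to -0.66, adjusted p = 7.6e-151 in the exact binomial test) and Mir17 at -0.60 (-0.63 to -0.57). Mir18 had -0.27 (-0.37 to -0.18) and Mir93 -0.24 (-0.27 to -0.20). Mir92-1 was higher in replicate 2 by 0.54 (0.49 to 0.59, adjusted p = 4.4e-88). Mir25 at -0.05 (-0.17 to 0.07, adjusted p = 0.548), Mir19a at -1.18 (-3.13 to 0.39, adjusted p = 0.194) and Mir19b-1 at -0.25 (-1.65 to 1.12, adjusted p = 0.871) did not pass the exact binomial test. The value of Mir25 turned to 0.059 with Mir122, the main miRNA of hepatocytes, left out of the totals, while the 6 calls stayed at 5 lower and 1 higher.

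These p-values measure the distance of 1 library from another, and animals vary beyond counting error. In edgeR's exact negative binomial test at the common spread of the libraries (a biological coefficient of variation of 0.394, estimated from the same 2 libraries), 0 members passed and 0 had an unadjusted p under 0.05. Over all genes that test called 2, or 0.45%, and 24 at an unadjusted p under 0.05.

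**Figure D3:**
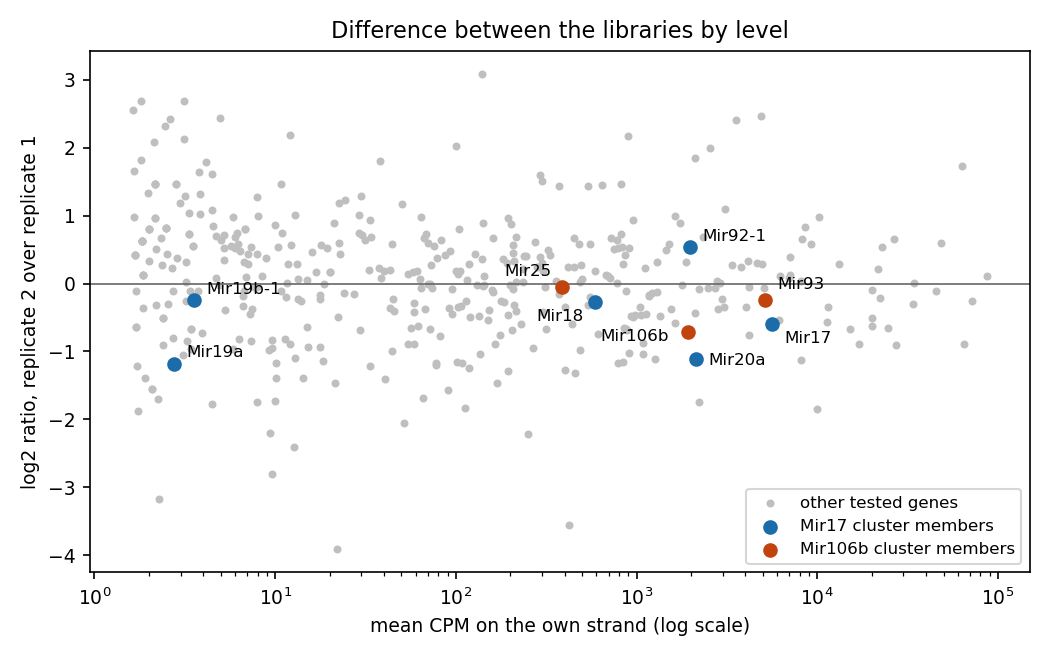
Log2 ratio of replicate 2 over replicate 1 against mean CPM (log scale) for each of the 444 genes tested; grey points are other genes and coloured points the members of each cluster. Mir92-1 is the member above 0, at 0.54, and Mir20a is at -1.11, with grey points of like level both above and below them.

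Other markers moved between the libraries as well, as did 59% of all genes tested, 30.4% lower in replicate 2 and 28.6% higher. None of the markers tested passed the negative binomial test. Mir122 had 97850 CPM in replicate 2 and 29424 CPM in replicate 1. The red cell genes Mir451a (233.8 and 566.9 CPM in replicates 2 and 1) and Mir144 (45.8 and 135.7 CPM) were lower in replicate 2, and Mir486, also of red cells, was higher (42.2 and 17.2 CPM). Of the smooth muscle genes, Mir143 was lower and Mir145a higher (31956 and 38590 CPM summed). The endothelial gene Mir126a had 45249.7 CPM in replicate 2 and 84262 CPM in replicate 1. Of 4 leukocyte genes 2 were higher in replicate 2 and none lower (1547 and 1044 CPM summed in replicates 2 and 1). For striated muscle, 2 of 6 genes were higher and 4 had too few reads, among them Mir133a-2 at 0 in both libraries (3311 and 921 CPM summed), and for epithelium 4 of 5 were higher (360.1 and 159.6 CPM summed). The neuroendocrine gene Mir375 had 34383 CPM in replicate 2 and 34145 CPM in replicate 1 and did not pass, while Mir7-1, Mir7-2 and Mir7b were lower in replicate 2. Mir142, Mir451a, Mir486 and Mir1a-2 had 0 reads in the column without strand, where Mir126a averaged 5.12 CPM, so the values of these 5 genes, the only endothelial gene among them, rest on the column of the gene's own strand. These libraries hold miRNA genes only, so the steroid enzymes of the cortex were not analysed here. The part of these cell types in the members' ratios was not tested.

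Summed by seed, the groups with members of both clusters gave log2 ratios of opposite sign. The 4 members with the seed AAAGUGC held 78.6% of the members' counts in replicate 2 and 86.9% in replicate 1, with a summed log2 ratio of -0.56 (95% interval -0.58 to -0.54, counting error only). The 2 members with the seed AUUGCAC held 17.8% in replicate 2 and 9.87% in replicate 1, with a summed log2 ratio of 0.44 (0.39 to 0.49). Both groups draw on both clusters, with Mir17 and Mir20a beside Mir106b and Mir93 in the first and Mir92-1 beside Mir25 in the second. The sum of the second group rests on Mir92-1, since Mir25 alone did not pass. The arm of Mir92-1 with this seed lies whole in Mir92-2 too. The counts therefore do not show how many reads of Mir92-1 carry the seed, and this summed ratio is uncertain. The groups with members of the Mir17 cluster only had summed log2 ratios below 0. These were -0.27 for AAGGUGC (-0.37 to -0.18), which is Mir18 alone, and -0.67 for GUGCAAA (-1.72 to 0.34). No test was made of the seed groups, which were compared after the values were seen.

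The paralog Mir106a cluster on the X chromosome, a copy of the Mir17 cluster that carries the same seed groups, had far lower counts. The sum of its 6 genes was 222.4 CPM in replicate 2, against 247.6 CPM in replicate 1. Of the 5 with enough reads, 2 were lower in replicate 2, against 30.4% of all genes tested, and 1 was higher, against 28.6%. The other 2 did not pass, and the median log2 ratio was -0.37 against 0.07 for all genes tested. Of the mature forms of its genes, miR-106a-5p differed from miR-17-5p at 1 of 23 positions and miR-20b-5p from miR-20a-5p at 2 of 23, while miR-363-3p is shown for its seed:
miR-106a-5p: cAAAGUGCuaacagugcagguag
miR-20b-5p: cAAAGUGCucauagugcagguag
miR-363-3p: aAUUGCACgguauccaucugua

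Mir106a, the X-linked counterpart of Mir17, had 58.8 CPM in replicate 2 and 76.0 CPM in replicate 1 (log2 ratio -0.37, adjusted p = 0.021 in the exact binomial test). Mir20b, the counterpart of Mir20a, had 55.2 CPM in replicate 2 and 87.9 CPM in replicate 1 (-0.67, adjusted p = 6.5e-06). Mir92-2, the second source of miR-92a-3p, had 85.1 CPM in replicate 2 and 55.9 CPM in replicate 1 (0.60, adjusted p = 6.3e-05). Each of these 3 had the sign of its counterpart, while Mir18b, at 1.47, had the opposite sign to Mir18, at -0.27. Mir92-2 shares a run of 22 bases with Mir92-1. Mir363, with the seed of Mir25, had 18.5 and 26.0 CPM in replicates 2 and 1 and did not pass. Mir18b had 13 and 4 reads and did not pass, and Mir19b-2 had 2 and 1 reads and was not tested. Since miR-19b-3p lies whole in Mir19b-1 too, these reads do not show the level of the X-linked copy.

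Set against their X-linked counterparts, the members had more counted reads in both libraries. The main arms of Mir92-1 and Mir19b-1 lie whole in their counterparts too, so the ratios of those pairs are uncertain. Mir17 over Mir106a was 76.1 in replicate 2 and 89.1 in replicate 1, and the difference did not pass (log2 interval -0.51 to 0.06). Mir20a over Mir20b was 24.4 in replicate 2 and 33.1 in replicate 1, which differed by more than counting error (adjusted p = 0.0162 over 5 pairs, Fisher's exact test). Mir92-1 over Mir92-2 was 27.4 in replicate 2 and 28.7 in replicate 1 (interval of the difference -0.35 to 0.22). Mir18 over Mir18b was 127 in replicate 2 and 459 in replicate 1 and did not pass after adjustment, and Mir19b-1 over Mir19b-2 rested on 3 reads of Mir19b-2 in all.

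**Figure D4:**
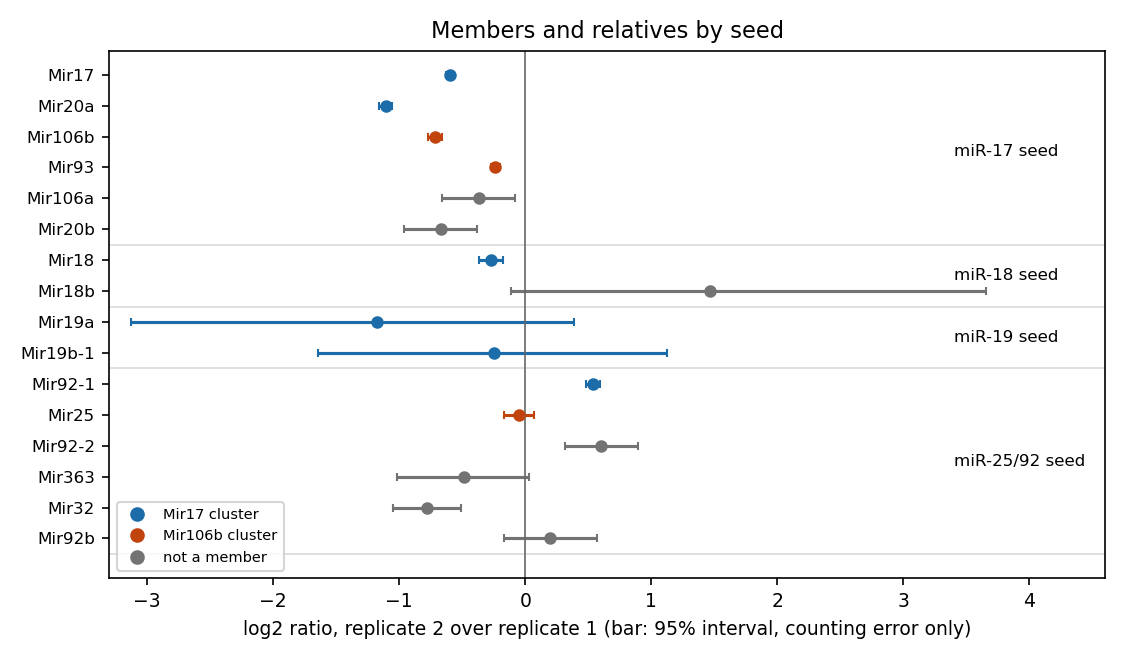
Log2 ratio of replicate 2 over replicate 1 for the members (blue and orange) and for related genes outside the clusters (grey), grouped by seed; bars are 95% intervals for counting error only, and Mir19b-2 and Mir367, with under 10 reads, are not drawn. The 6 genes drawn with the Mir17 seed lie below 0, while the group of Mir25 and Mir92-1 lies on both sides.

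The seed of miR-25 and miR-92a also occurs in genes elsewhere in the genome. Mir32 had 60.1 CPM in replicate 2 and 103 CPM in replicate 1 and was lower in replicate 2 (-0.78, adjusted p = 2e-08 in the exact binomial test). Mir92b had 46.4 CPM in replicate 2 and 40.4 CPM in replicate 1 and did not pass (adjusted p = 0.39). Mir367 was listed at 0 in both libraries. Genes with this seed thus passed the test in either direction or not at all. The main arms of Mir32 and Mir92b share only part of their sequence beyond the seed:
miR-32-5p: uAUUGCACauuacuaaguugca
miR-92b-3p: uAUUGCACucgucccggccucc

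The 8 genes of the miR-290 and miR-302 clusters listed here are known from pluripotent cells. The seeds of the 3p arms of the 7 genes other than Mir302a overlap the miR-17 seed motif at a shifted position and do not all share 1 seed. Their sum was 62.3 CPM in replicate 2, against 164.2 CPM in replicate 1. Of 6 with enough reads 4 were lower in replicate 2, against 30.4% of all genes tested, and 2 did not pass. The negative binomial test called none of them. The median log2 ratio was -1.17 against 0.07 for all genes tested. Among the 4, Mir302a had 17 and 42 reads and Mir302b 10 and 44 in replicates 2 and 1. Each of these shares a run of 18 bases with another hairpin. Mir294 had 31.2 CPM in replicate 2 and 100.2 CPM in replicate 1. In level all of them lay below Mir25.

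The ratio between the libraries was also set against the GC content of the mature miRNA, a relation looked at after the values were seen. Mir20a, with 39.1% GC in its main arm, had the lowest ratio of the 7 members with a mean of at least 100 reads, and Mir92-1, with 57.1%, the highest. Because that arm of Mir92-1 also lies whole in Mir92-2, the counts do not show which arm the reads of Mir92-1 came from. Between them lay Mir106b (42.9%), Mir18 (43.5%), Mir17 (47.8%), Mir25 (50%) and Mir93 (52.2%). Across these 7 genes Spearman's rho was 0.93 for the main arm, 0.89 for the main arm of 6 members without Mir92-1, 0.54 for the mean of the annotated arms of the 7 and 0.29 for their whole hairpins, so the size of the relation depended on the arm taken as the source of the reads. The 7 genes share libraries, seeds and precursor transcripts and are not independent.

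Across all 235 genes with a mean of at least 100 reads and an annotated mature sequence, rho with the mean of the arms was 0.36, and the log2 ratio was higher by 0.19 for each 10 percentage points of GC. With this fit taken into the expected share of the binomial test, 6 of 9 members passed, 5 lower and 1 higher. Of the 397 genes tested in that way 221 passed, 116 lower and 105 higher. The log2 ratio was then -0.86 for Mir20a, -0.56 for Mir17 and 0.56 for Mir92-1. The 7 members were themselves among the genes fitted. Since that fit used the mean of the arms, the part of the main arm's composition in the members' ratios was not tested.

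**Figure D5:**
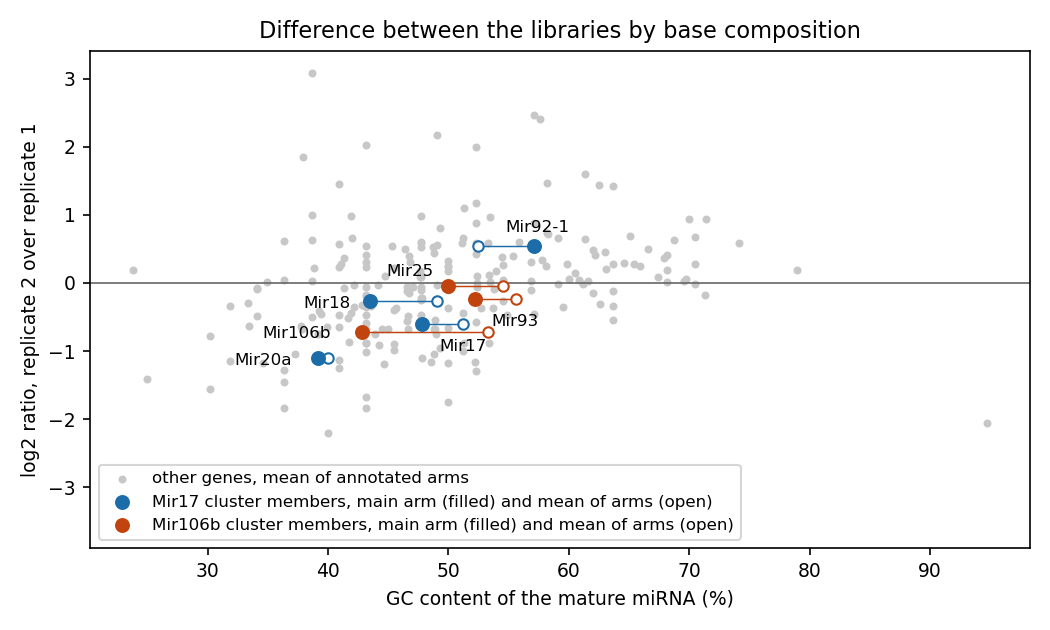
Log2 ratio of replicate 2 over replicate 1 against the GC content of the mature miRNA in percent; grey points are other genes with a mean of at least 100 reads by the mean of their annotated arms, and each of 7 members is drawn by its main arm (filled; for Mir92-1 an arm also found in Mir92-2) and by the mean of its arms (open). By the main arm the members run from Mir20a at 39.1% and -1.11 to Mir92-1 at 57.1% and 0.54, and by the mean of the arms most of them lie between 49.0% and 55.6%.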

How the data were processed

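MicroRNA libraries of RNA under 30 bases were made from total RNA of adrenal glands, per the labels. The files the authors deposited hold raw counts for miRNA genes of GENCODE M21 on mm10, per the file descriptions, and the sources used here name no aligner or counter. Their 3 count columns take reads from either strand, from the strand of the gene and from the other strand, going by the values. The strand of the gene was used here, with the first column as a check. The 4 special rows stayed out of totals: reads unmapped (32.0% in replicate 2, 26.4% in replicate 1), mapped to several places (25.9% and 27.5%), outside genes (7.54% and 8.22%) and, without strand, ambiguous (5.77% and 7.93%). All 2202 identifiers matched GENCODE M21.

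CPM used all gene rows. Log2 ratios added 0.5 counts. The exact binomial test was run over all gene rows with at least 10 counts, at an adjusted threshold of 0.05, and tested on simulated data. With 1 group, no quasi-likelihood fit was possible. Intervals of library ratios are exact (Clopper-Pearson) and those of pair and cluster ratios are Wald intervals on the log scale. No molecular identifiers are recorded. Named genes were all members, the listed relatives and the 3 nearest genes per cluster. Members and lists were chosen with earlier results of these data known. Alternatives were other columns, totals, minimums, pseudocounts, factors, hairpin length, single replicates, shared sequence left out, a negative binomial test, totals without Mir122 and, added after seeing the data, a GC fit, the GC relation without Mir92-1 and totals without Mir122 and Mir126a. Python 3.11.15 ran with scipy 1.17.1, pandas 2.3.3 and numpy 2.4.6, and R 4.3.3 with DESeq2 1.42.0 and edgeR 4.0.16.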

Additional observations from a re-analysis of the deposited data

Results flagged for a closer look

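Reads that mapped to several places lie outside the gene counts used above. They made up 25.9% of the reads of replicate 2 and 27.5% of those of replicate 1. The files do not say which sequences these reads hold.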

How the results depend on the processing

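No paired analysis was possible because the libraries form 1 group. The share of the Mir17 cluster, 1.03%, was 1.28% in the column without strand and 0.377% of all reads in the file, and that of the Mir106b cluster, 0.743%, was 0.918% and 0.271%; these follow from the smaller or larger totals. Single replicates gave 0.870% to 1.19% and 0.653% to 0.832%, within the SD by construction. The 6 members and 262 genes called by the binomial test became 0 and 2 in edgeR's negative binomial test, whose added spread comes from the same libraries. Under every other alternative run 6 members were called. Over all genes those alternatives called from 221 of 397 tested, with the GC fit, to 262 of 444. Mir25, not called, turned from -0.05 to 0.059 without Mir122 and to 0.0025 without Mir122 and Mir126a (adjusted p 0.411 and 1.0 in the exact binomial test). The share of calls lower in replicate 2 over all genes was 51.5%, and ranged over the binomial alternatives from 43.3% without Mir122 to 55.3% with edgeR's TMM factors. Leaving out Mir122 raised the median of all genes from 0.07 to 0.17. The 10 of 18 pairs called became 6 of 9 with Mir19b-1 and Mir92-1 left out, since fewer pairs were tested. The difference in the clusters' log2 ratio, -0.11, was then -0.35, and their mean log2 ratio, 0.47, was then 0.14. The Mir17 cluster was then the lower of the clusters in replicate 2 and the higher in replicate 1. With all members the log2 ratio was 0.41 to 0.52 in single replicates. Mir19a and Mir19b-1, at 5 to 11 reads, are limited by their low counts. Mir19b-1 is also limited by the sequence it shares with Mir19b-2, since reads with several places are not in the gene counts.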
